A study of Mus musculus with 4 samples.

Results

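The colony-stimulating factor receptors and ligands were examined in macrophages of the adult mouse dermis, in 2 subsets sorted by their level of the fractalkine receptor CX3CR1. The set holds 8 genes: the receptor genes Csf1r, Flt3, Kit, Csf2ra, Csf2rb and Csf3r and the ligand genes Csf1 and Il34. They were chosen by name, each represented by its brightest transcript cluster across the 4 arrays. All 8 were found among the 22180 genes of the array table, and all 8 were among the 13133 genes tested. Cells came from ear skin of untreated adult C57Bl/6 mice of genotype Cx3cr1+/gfp, housed in an SPF facility without ear clipping. GFP takes the place of 1 Cx3cr1 allele in these animals, in both subsets alike. Each of the 4 samples, 2 CX3CR1low and 2 CX3CR1bright, was sorted from digested skin of 3 to 6 pooled mice, and the replicates of a subset came from 2 independent litters. The series has no dendritic cell, monocyte or whole-skin sample, so the subsets can be compared with each other alone.

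As background, CSF1R is the receptor tyrosine kinase on which most tissue macrophages depend for survival, and it is shared by the ligands CSF1 and IL-34. In skin, IL-34 is made mainly by keratinocytes and maintains Langerhans cells. FLT3 belongs to the same kinase class and is kept by dendritic cells and their progenitors, while KIT, the stem cell factor receptor, marks mast cells and melanocytes in skin. The receptors for GM-CSF and G-CSF are cytokine receptors without a kinase of their own, and they signal through JAK kinases and STAT factors.

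The values are RMA levels on the log2 scale, and the 4 arrays had medians of 3.65 to 3.68, a range in which a level can be background. Cx3cr1, the gene of the gate, stood at 3.63 and 3.60 on the CX3CR1low arrays and at 8.42 and 8.44 on the CX3CR1bright arrays, as the labels state. The 15 macrophage markers, among them Cd68, Cd14 and C1qb, were above the array median on all arrays. Over the tested genes, which are not independent replicates, r was 0.978 between the CX3CR1low arrays and 0.960 between the CX3CR1bright arrays. Markers of other skin cells varied too, and CX3CR1bright replicate 2 carried the highest keratinocyte level. Precision is limited by the number of arrays, and each array is a pool, so p-values do not speak for single animals. Differences below are CX3CR1bright minus CX3CR1low in log2 units with the moderated standard error, n = 2 per subset, and adjusted p-values are limma's with Benjamini-Hochberg adjustment over the 13133 genes.

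Of the 8 genes, Flt3 had the largest difference between the subsets and the macrophage receptor Csf1r had a small difference of the opposite sign. At an adjusted p under 0.05, 0 of the 8 passed (limma), where 0.137% of all tested genes did. At an unadjusted p under 0.05, 3 of 8 were found, namely Flt3, Csf1 and Csf3r, where 18.8% of tested genes were. In 5 of 8 genes the arrays of the subsets did not overlap, against 50.4% of all tested genes, so that count lies near the background. At least 2-fold apart without overlap were 2 of 8, Flt3 and Csf3r, against 5.83% of tested genes, and 1 of them lay in each direction. The median difference was -0.22 over the 8 genes and -0.070 over all tested genes, or -0.10 and 0.017 after cyclic loess. In the deposited values 42.5% of all tested genes had positive differences, a share that bears on each count of signs below.

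**Figure D1:**
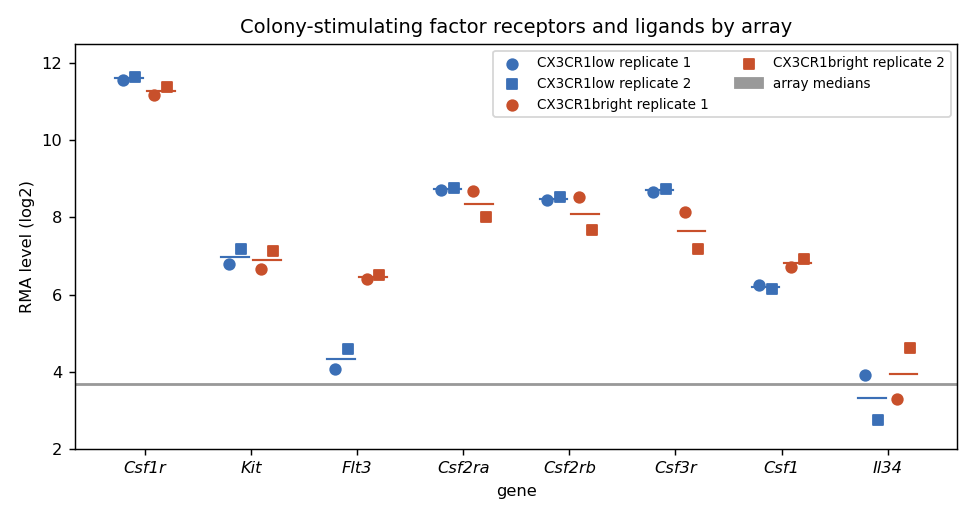
RMA levels (log2) of the 8 genes on each array. Blue points are the CX3CR1low arrays, red points the CX3CR1bright arrays, circles replicate 1 and squares replicate 2. Short lines are subset means (n = 2) and the grey band spans the array medians. Flt3 lies at 4.06 and 4.58 on the CX3CR1low arrays and at 6.41 and 6.50 on the CX3CR1bright arrays.

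Among the receptor tyrosine kinases, Csf1r (transcript cluster 17351053) was far above the array median in both subsets. Its levels were 11.57 and 11.66 in CX3CR1low cells and 11.17 and 11.38 in CX3CR1bright cells, or 11.61 ± 0.060 and 11.27 ± 0.15 (SD, n = 2). Both CX3CR1bright arrays lay below both CX3CR1low arrays, by little. The difference was -0.34 ± 0.19, 1.27-fold, with a 95% interval of -0.82 to 0.14 and an adjusted p of 0.407. By size it sat well inside the bulk of genes, since the 25th and 75th percentiles of all tested differences were -0.35 and 0.20. The interval reaches down to -0.82, so the p does not show that the subsets had equal levels. The sign was negative under each alternative setting, from -0.45 to -0.23.

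Flt3 (cluster 17455319), the dendritic lineage receptor, stood at 4.06 and 4.58 in CX3CR1low cells, a little above the array medians. In CX3CR1bright cells it stood at 6.41 and 6.50. The means were 4.32 ± 0.36 and 6.45 ± 0.064 (SD, n = 2), and both CX3CR1bright arrays lay well above both CX3CR1low arrays. The difference was 2.13 ± 0.24, 4.38-fold, with a 95% interval of 1.53 to 2.74, and its adjusted p of 0.0632 missed the threshold. It ranked 40 among the 13133 tested genes by positive difference and 45 by p. Because the CX3CR1low level lies near background, the fold may be limited by it. Leaving out single arrays gave differences of 1.88 to 2.39, with adjusted p-values of 0.0534 to 0.341, and under an intensity trend in the variance prior the adjusted p was 0.0258. In bulk samples such as these, fewer cells that carry a transcript and less of it in each cell cannot be told apart.

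Other dendritic cell genes were measured beside Flt3. Of 11 conventional dendritic cell markers other than Flt3 itself, 9 had positive and 2 negative differences, with a median of 1.05 against -0.070 over all tested genes. None passed at an adjusted p under 0.05 (limma, 0 of 11, with 7 positive and 1 negative at an unadjusted p under 0.05). The negative one was Kmo, an enzyme of tryptophan breakdown, at 5.13 and 5.40 against 4.79 and 4.38. At that unadjusted p, 18.8% of all tested genes were found. At least 2-fold apart without overlap were 6 of 11, all positive, against 5.83% of all tested genes. Among those 6, Dpp4 stood at 3.59 and 3.68 against 4.55 and 4.82 and Btla at 3.62 and 4.09 against 4.89 and 4.95. Both were under the array median on CX3CR1low replicate 1. Their CX3CR1bright arrays alone met the filter of at least 2 arrays above the median. The markers were chosen with earlier results of these data known, so these counts are a description. The summed level of the list was 8.76 and 8.71 in CX3CR1low and 10.07 and 9.67 in CX3CR1bright arrays, on the log2 scale of the sum. Ccr7, which guides migration to lymph nodes, stood at 5.51 and 5.88 against 8.04 and 7.79, and the integrin gene Itgax at 4.75 and 5.36 against 6.88 and 6.61. Batf3, a transcription factor of cross-presenting dendritic cells, differed by 0.49 ± 0.24 (adjusted p = 0.343). Xcr1, the chemokine receptor of those cells, stood at 4.62 and 4.48 against 4.68 and 4.22, with overlap. The 6 Langerhans cell markers all had positive differences, with a median of 1.91 and summed levels of 9.75 and 9.66 against 10.62 and 11.47. Among them, the decoy receptor gene Il1r2 stood at 6.41 and 5.98 against 8.18 and 7.98. Cdh1, the E-cadherin gene that keratinocytes share, stood at 6.10 and 5.75 against 6.47 and 9.24. The part of such cells in the Flt3 difference was not tested.

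The contrast between the dendritic and the macrophage receptor was also taken within each array. That removes a log2 shift common to all genes of an array, but not one that depends on the level. Relative to the CX3CR1low mean, Flt3 minus Csf1r lay at -0.21 and 0.21 on the CX3CR1low arrays and at 2.53 and 2.41 on the CX3CR1bright arrays. The shift of Flt3 thus exceeded that of Csf1r by 2.47, beyond the SD of 0.30 and 0.085 within the subsets. An exact two-sided permutation test over the 6 splits of the arrays gave p = 0.333, the smallest that 4 arrays allow. The test therefore could not decide whether the shifts differ, whatever the levels were, and no conclusion is drawn from it. With 1 array left out the shift of Flt3 exceeded that of Csf1r by 2.26 to 2.69.

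For a search of similar profiles, genes were first left out by name pattern. Among those left out were predicted, clone-derived, small RNA, olfactory, vomeronasal and antigen receptor genes, and names that begin with Rn. Of the remaining tested genes, Timd4, Ccr7 and Il21r most resembled Flt3 in their 4 values after each gene's mean was subtracted. Their Euclidean distances from Flt3 were 0.227, 0.274 and 0.275 over the 4 arrays. Timd4, a phosphatidylserine receptor, stood at 6.19 and 6.77 in CX3CR1low and 8.68 and 8.46 in CX3CR1bright cells. Il21r, the receptor for interleukin-21, stood at 4.64 and 4.77 against 6.83 and 6.83. For Csf1r the closest genes were Ndst2, Tbc1d9 and Vapa, at distances of 0.0265, 0.0306 and 0.0374. Their differences were -0.33 ± 0.19, -0.34 ± 0.19 and -0.32 ± 0.19. With 4 arrays many genes share a profile this small, and the resemblance is a description.

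Kit (cluster 17438272) showed no separation of the subsets. It stood at 6.79 and 7.18 in CX3CR1low and at 6.66 and 7.12 in CX3CR1bright cells, so the arrays overlapped. The difference was -0.095 ± 0.26, with a 95% interval of -0.75 to 0.56 and an adjusted p of 0.887. Its sign turned after quantile normalization and cyclic loess. Of 10 mast cell markers other than Kit, 9 were above the median on all arrays, led by the carboxypeptidase gene Cpa3 at 10.03 and 10.04 in CX3CR1low and 9.84 and 9.78 in CX3CR1bright cells. The summed mast cell level was 10.87 and 10.93 against 10.61 and 10.51, and Fcer1a, the IgE receptor chain, was above the median on 1 array. The chymase gene Cma1 stood at 7.28 and 7.46 against 6.74 and 6.82, and the tryptase gene Tpsb2 at 7.77 and 7.86 against 7.19 and 6.74. Of the 9 tested markers 6 had negative and 3 positive differences, the latter Ms4a2, Tph1 and the receptor gene Mrgprb2, at 3.72 and 4.25 against 4.43 and 4.41. Of 8 melanocyte markers 3 were at or under the median on all arrays, with Pmel the brightest at 4.51 and 4.55 against 4.48 and 4.79. Which cells carried Kit was not tested.

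The GM-CSF receptor genes stood at similar levels on CX3CR1low replicates 1 and 2 and CX3CR1bright replicate 1, and at lower levels on CX3CR1bright replicate 2. Csf2ra (cluster 17366170), the ligand-binding chain, stood at 8.71 and 8.76 against 8.68 and 8.02, a difference of -0.38 ± 0.27 (95% interval -1.07 to 0.30, adjusted p = 0.508). Csf2rb (cluster 17312716), the signalling chain shared with interleukins 3 and 5, stood at 8.45 and 8.53 against 8.52 and 7.68. Its difference was -0.39 ± 0.32, with a 95% interval of -1.19 to 0.41 and an adjusted p of 0.565. Without CX3CR1bright replicate 2 the differences were -0.055 for Csf2ra and 0.032 for Csf2rb, so both rest on that array. It is also the array on which the summed keratinocyte level was 12.62, against 9.88 to 10.82 on the others, and on it the keratin genes Krt17 and Krt14 stood at 11.02 and 10.58. The part of those cells in the values was not tested.

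Csf3r (cluster 17418485), the G-CSF receptor that neutrophils need for their production, was the member with the largest negative difference. It stood at 8.67 and 8.74 in CX3CR1low cells and at 8.14 and 7.18 in CX3CR1bright cells, so that both CX3CR1bright arrays lay below, CX3CR1bright replicate 2 furthest. The means were 8.70 ± 0.050 and 7.66 ± 0.68 (SD, n = 2). The difference was -1.04 ± 0.35, 2.06-fold, with a 95% interval of -1.91 to -0.17 and an adjusted p of 0.207. It was -0.56 without CX3CR1bright replicate 2 and -1.52 without CX3CR1bright replicate 1, and after cyclic loess it was -0.90, under 2-fold. Neutrophil markers were near background: 7 of 11 were at or under the median on all arrays, among them Ly6g and S100a8. The gelatinase gene Mmp9 was the only neutrophil marker above the median on all arrays, at 5.80 and 5.66 against 4.74 and 4.74. Of the 3 neutrophil markers tested 2 had positive differences and 1, Mmp9, a negative difference. Of the untested ones, S100a9 stood at 2.84 and 3.17 against 4.41 and 3.65. The summed neutrophil level was 7.22 and 7.11 against 7.02 and 7.07.

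Of the ligands of CSF1R, Csf1 (cluster 17409075) stood at 6.26 and 6.13 in CX3CR1low cells and at 6.72 and 6.92 in CX3CR1bright cells. Both CX3CR1bright arrays lay above both CX3CR1low arrays, opposite to the order of the receptor. The difference was 0.63 ± 0.19, 1.54-fold, with a 95% interval of 0.14 to 1.11 and an adjusted p of 0.188. It was 0.53 to 0.73 with 1 array left out. Fibroblasts make CSF1 as well, and the 9 fibroblast markers other than Pdgfra all had positive differences, with a median of 0.91. Their summed level was 10.78 and 10.36 on the CX3CR1low arrays and 11.55 and 11.34 on the CX3CR1bright arrays, led by the decorin gene Dcn at 10.22 and 9.55 against 10.97 and 10.49. The part of fibroblast RNA in the Csf1 difference was not tested.

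Il34 (cluster 17512895), the keratinocyte-derived ligand, was the dimmest of the set. It stood at 3.92 and 2.74 in CX3CR1low and at 3.28 and 4.60 in CX3CR1bright cells, above the array median on 2 of 4 arrays, 1 in each subset. The arrays overlapped, and the difference of 0.61 ± 0.57 (95% interval -0.84 to 2.07, adjusted p = 0.621) ran from -0.046 to 1.28 with 1 array left out. CX3CR1bright replicate 2 held both the highest Il34 level and the highest summed keratinocyte level. The other arrays did not keep that order, since CX3CR1bright replicate 1 had the second keratinocyte level at 10.82 and the third Il34 level. The part of keratinocyte RNA in the Il34 level was not tested.

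**Figure D2:**
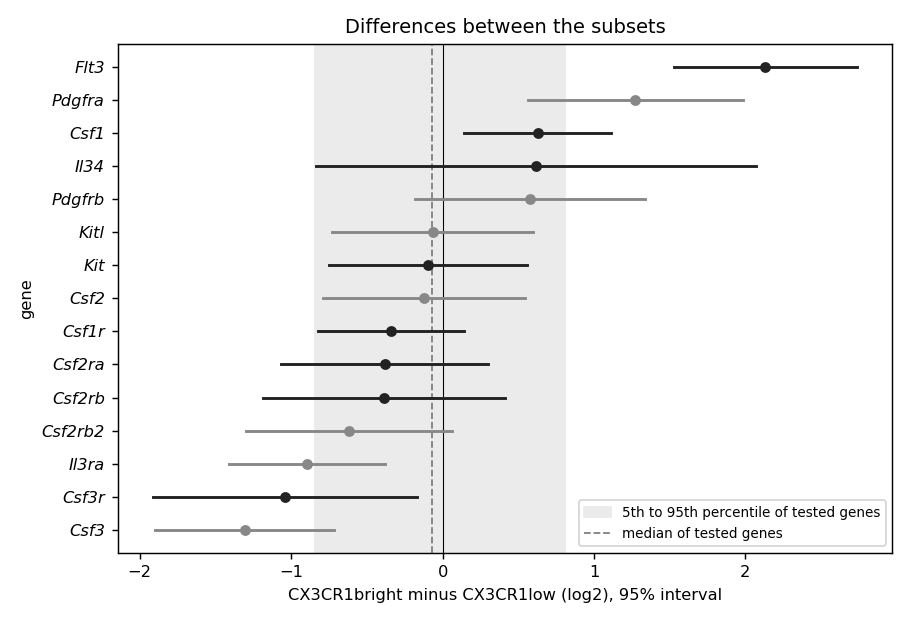
Differences (CX3CR1bright minus CX3CR1low, log2) with 95% intervals from the moderated fit, for the 8 genes (black) and the related ligands and receptors that were tested (grey). Shading spans the 5th to 95th percentile of all tested genes, -0.84 to 0.81, and the dashed line is their median. Flt3 and Pdgfra lie beyond it on the positive side and Csf3, Csf3r and Il3ra on the negative side.

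The promoter windows of Flt3, Csf3r and Csf1 are shown because these were the members with the largest differences without overlap, in both directions. Each is the 250 bases upstream of a RefSeq start in GRCm38.p6, 5′ to 3′ on the gene's strand, and the array annotation's own build is not given in the sources used here. Capitals mark GAGGAAG or GGAAGT on either strand, letters of the purine-rich box that ETS factors such as PU.1, the myeloid master regulator, can bind. The last letters of the first motif can be the first letters of the second, so matches may overlap.
Flt3, chr5:147400490-147400739, minus strand: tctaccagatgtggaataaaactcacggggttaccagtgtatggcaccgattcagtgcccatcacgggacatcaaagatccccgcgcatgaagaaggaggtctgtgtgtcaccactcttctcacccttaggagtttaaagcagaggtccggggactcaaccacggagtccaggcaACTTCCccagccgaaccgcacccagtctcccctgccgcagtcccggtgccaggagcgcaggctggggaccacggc
Csf3r, chr4:126024409-126024658, plus strand: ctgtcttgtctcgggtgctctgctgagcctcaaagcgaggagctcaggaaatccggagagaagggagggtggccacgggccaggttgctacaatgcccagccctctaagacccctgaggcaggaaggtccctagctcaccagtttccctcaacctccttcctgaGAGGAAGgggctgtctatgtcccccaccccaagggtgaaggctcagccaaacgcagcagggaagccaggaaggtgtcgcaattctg
Csf1, chr3:107760470-107760719, minus strand: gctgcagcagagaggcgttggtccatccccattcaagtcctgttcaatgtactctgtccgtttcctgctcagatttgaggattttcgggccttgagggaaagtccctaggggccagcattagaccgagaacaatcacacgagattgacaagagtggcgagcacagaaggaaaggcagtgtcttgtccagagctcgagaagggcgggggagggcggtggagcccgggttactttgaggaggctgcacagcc
The table held windows for 5 of the 8 genes, and not for Csf1r, Csf2rb and Il34. GAGGAAG was found in the windows of Csf3r, Csf2ra and Kit and in 10.6% of all 32851 windows. In Csf3r its first base lay at -86 from the start. The Flt3 window held GGAAGT on the opposite strand, from -75, as 19.7% of windows did on either strand, and no GAGGAAG. The Csf1 window held neither, where 26.4% of windows held at least 1 of them. A match is a description of letters, not of a bound site.

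The rest of the family was read from a list of 8 ligands and 11 receptors, which includes the 8 genes. Among all tested genes 42.5% had positive differences. Of the 10 receptors tested 3 had positive and 7 negative differences, with a median of -0.36. Of the 5 ligands tested 2 were positive and 3 negative, or 3 and 2 after cyclic loess. None of these 15 passed at an adjusted p under 0.05 (limma, with 6 at an unadjusted p under 0.05, namely Flt3, Csf1, Csf3r, Csf3, Pdgfra and Il3ra, against 18.8% of all tested genes). Csf3, which encodes G-CSF, the ligand of CSF3R, stood at 6.63 and 7.10 in CX3CR1low and at 5.63 and 5.49 in CX3CR1bright cells. Both CX3CR1bright arrays lay below both CX3CR1low arrays, and the difference was -1.31 ± 0.23 (adjusted p = 0.0977). The ligand and its receptor thus had differences of the same sign. For each the interval stayed below 0, but these intervals are not adjusted for the number of genes tested. Neither gene passed at an adjusted p under 0.05 (limma, 0.0977 for Csf3 and 0.207 for Csf3r). The size of the Csf3r difference also depended on the array, at -0.56 without CX3CR1bright replicate 2 and -1.52 without CX3CR1bright replicate 1.

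Of the receptors that pair with the common beta chain, Il3ra, the interleukin-3 binding chain, stood at 8.52 and 8.71 against 7.85 and 7.59. The difference was -0.90 ± 0.20 (adjusted p = 0.129), with no overlap. Csf2rb2, a mouse paralog of Csf2rb that serves interleukin-3 alone, stood at 10.70 and 10.35 against 10.19 and 9.63, a difference of -0.62 ± 0.27 (adjusted p = 0.303). The paralogs lie next to each other in the RefSeq table, and their near-identical sequences may share signal on the array. Il5ra, the interleukin-5 binding chain, was under the array median on all arrays. All 4 tested genes of the GM-CSF and interleukin-3 receptors, Csf2ra, Csf2rb, Csf2rb2 and Il3ra, had negative differences. Among all tested genes 42.5% had positive ones. The 4 differences stayed negative under all 3 rescalings of the deposited values. Without CX3CR1bright replicate 2 that of Csf2rb was 0.032.

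The kinases closest to CSF1R and KIT are the receptors for platelet-derived growth factor, which fibroblasts and mural cells carry. Pdgfra, the neighbour of Kit in the RefSeq table, stood at 4.35 and 4.38 against 5.28 and 5.99, a difference of 1.27 ± 0.28 (adjusted p = 0.123). Pdgfrb, the neighbour of Csf1r, stood at 5.99 and 5.83 against 6.87 and 6.10, a difference of 0.58 ± 0.30 (adjusted p = 0.370). Each neighbour had a positive difference where Csf1r and Kit had a negative estimate. The summed fibroblast level had the same order of subsets as both, and the difference of either gene from its neighbour was not tested.

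The other ligands were dim. Csf2, the gene of GM-CSF, stood at 3.90 and 4.39 against 3.83 and 4.22 on its brighter cluster, and at 2.47 to 3.61 on its other cluster. Kitl, the ligand of KIT, stood at 4.95 and 5.07 against 4.64 and 5.25, with overlap. Il3 was under the median on all arrays, and Il5 was above it on CX3CR1bright replicate 2 alone, at 3.81. Flt3l, the ligand of FLT3, was not analysed here.

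**Figure D3:**
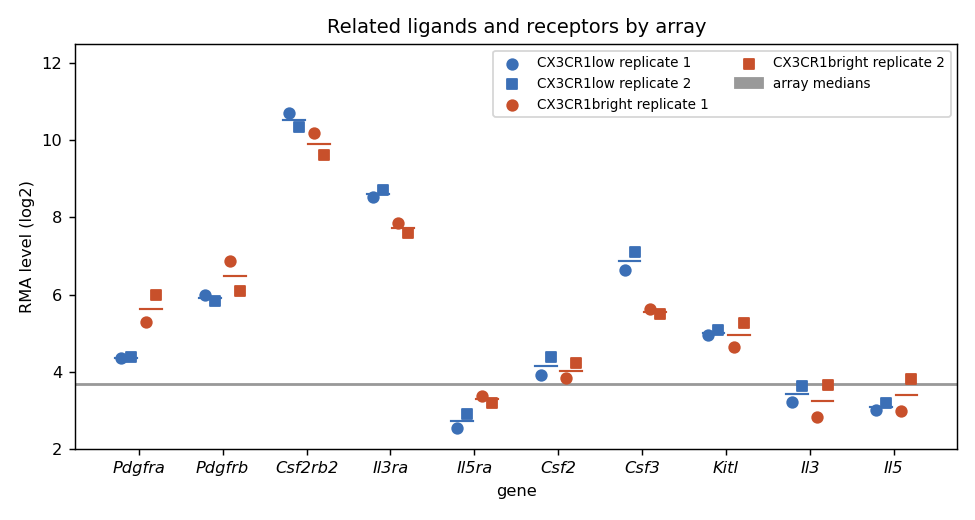
RMA levels (log2) of related receptors and ligands on each array, with colours, shapes, mean lines and the band of array medians as in the plot of the 8 genes. Csf3 and Il3ra lie lower on both red arrays, Pdgfra lies higher, and Il3, Il5 and Il5ra lie near or under the medians.

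Downstream of these receptors, 42 signalling genes were tested of 46 listed. None passed at an adjusted p under 0.05 (limma, 5 positive and 5 negative at an unadjusted p under 0.05), 18 differences were positive and 24 negative, and the median was -0.075 against -0.070 over all tested genes. After cyclic loess 22 were positive and 20 negative. At an unadjusted p under 0.05, 18.8% of all tested genes were found. At least 2-fold apart without overlap were 3 of 42, against 5.83% of all tested genes, so both counts lie near the background. Jak2, the kinase that serves the GM-CSF and interleukin-3 receptors, stood at 8.77 and 8.84 in CX3CR1low and at 9.96 and 10.19 in CX3CR1bright cells, a difference of 1.27 ± 0.19 (adjusted p = 0.0845). Its difference was thus opposite in sign to those of Csf2ra and Csf2rb. Src, a kinase recruited by CSF1R, stood at 6.55 and 6.74 against 5.25 and 5.48, a difference of -1.27 ± 0.20 (adjusted p = 0.0907). The kinase gene Lrrk2 differed by 1.10 ± 0.22 (adjusted p = 0.107). The brightest of the list, Stat3, Tyrobp and Jak1, which encode a transcription factor, an adaptor and a kinase, differed by -0.041 ± 0.19, -0.11 ± 0.21 and 0.047 ± 0.21.

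Among 18 tested transcription factors of these lineages, 7 differences were positive and 11 negative, with a median of -0.17, or 8 and 10 after cyclic loess. None passed at an adjusted p under 0.05 (limma, 1 positive and 2 negative at an unadjusted p under 0.05). At that unadjusted p, 18.8% of all tested genes were found. At least 2-fold apart without overlap was 1 of 18, against 5.83% of all tested genes, so both counts lie near the background. That gene was Tfec, a macrophage relative of Mitf, at 8.70 and 9.05 against 7.81 and 6.81. Its difference was -1.56 ± 0.37 (adjusted p = 0.137). The brightest factors were Ets2, Fli1 and Klf4, with differences of -0.12 ± 0.19, 0.0079 ± 0.19 and -0.69 ± 0.23. Zbtb46, a factor of conventional dendritic cells, stood at 5.19 and 5.31 against 5.85 and 6.13.

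**Figure D4:**
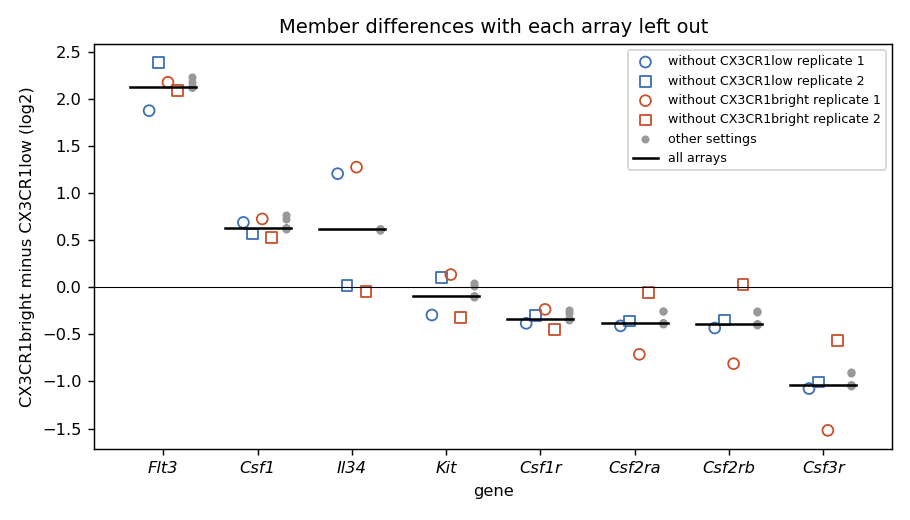
Differences (CX3CR1bright minus CX3CR1low, log2) of the 8 genes with all arrays (black line), with each array left out in turn (open symbols, coloured by the subset of the array left out) and under the other settings (grey points). Flt3 stays between 1.88 and 2.39, while Csf2rb and Il34 reach the other side of 0 without CX3CR1bright replicate 2.

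The other cell types that the sort could hold differed in how they followed the subsets. Summed levels of the T cell and innate lymphoid cell list, whose cells can make GM-CSF, were 9.07 and 8.88 in CX3CR1low and 10.33 and 10.17 in CX3CR1bright arrays, led by Il7r at 8.32 and 8.19 against 9.81 and 9.81. Of the tested genes of that list, Cd3e, Cd2, Thy1 and Il2ra overlapped between the subsets, while Il7r, Cd3g, Gata3 and Cd5 did not. The monocyte list stood at 9.38 and 8.57 against 10.03 and 9.98, led by Fn1 at 8.09 and 7.76 against 9.05 and 9.48. Its genes Ly6c2, Plac8, Chil3, Hp and Ms4a4c overlapped between the subsets, while Fn1, Ccr2, Vcan and Spn did not. Of all tested genes 50.4% did not overlap, so the splits of the T cell and monocyte lists lie near the background. Keratinocyte levels were 10.41 and 9.88 against 10.82 and 12.62. The plasmacytoid dendritic cell list, of a lineage that also carries FLT3, had overlapping sums of 9.10 and 9.28 against 9.22 and 9.24. Tcf4 led those sums, at 8.64 and 8.82 against 8.76 and 8.73, and 3 of 7 markers were at or under the median on all arrays. Siglech stood at 6.32 and 6.55 against 6.56 and 6.83. Cox6a2 lay the other way, at 4.92 and 5.05 against 4.90 and 4.55, both without overlap. The macrophage list stood at 14.56 and 14.61 against 14.39 and 14.31. Like Csf1r, both CX3CR1bright arrays lay below both CX3CR1low arrays there. Of 15 markers 11 were negative, with a median of -0.34, or 10 of 15 and -0.23 after cyclic loess. Over all tested genes 42.5% of differences were positive and the median was -0.070, or 0.017 after cyclic loess. Endothelial levels were 7.53 and 8.13 against 7.90 and 7.16, and basophil and eosinophil levels 6.10 and 5.91 against 6.81 and 5.84. The part of any of these cells in the values of the 8 genes was not tested.

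**Figure D5:**
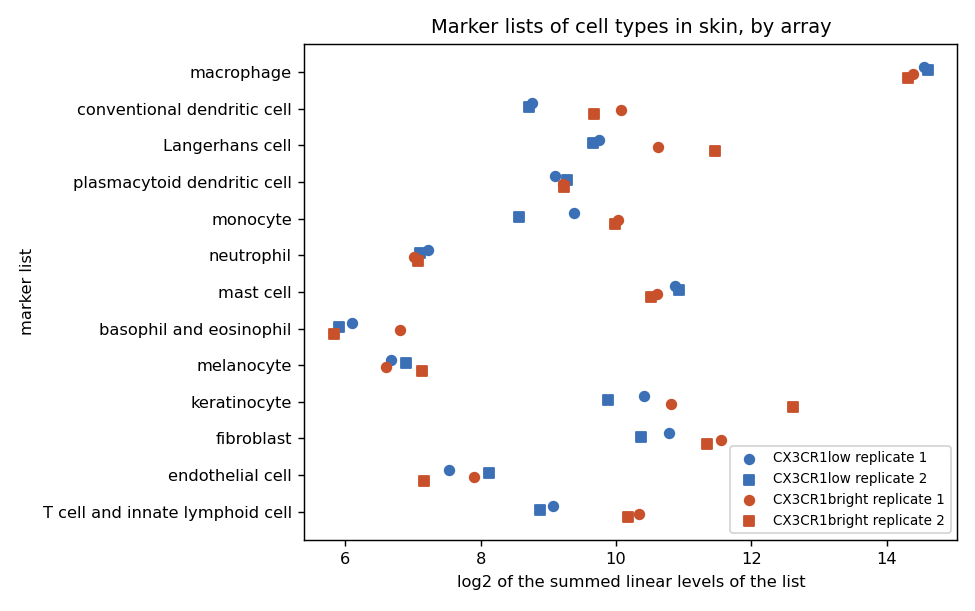
Summed levels of the marker lists of cell types in skin on each array (log2 of the sum of the linear levels), leaving out genes of the colony-stimulating factor family. Colours and shapes are those of the plot of the 8 genes. Conventional dendritic, Langerhans, monocyte, keratinocyte, fibroblast and T cell lists lie higher on both CX3CR1bright arrays. The macrophage, mast cell and neutrophil lists lie lower on both, and the other lists overlap. The keratinocyte list is highest on CX3CR1bright replicate 2, at 12.62.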

How the data were processed

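Per the labels' protocols, RNA of the sorted cells was column-purified and amplified with Affymetrix WT Pico reagents for whole-transcript arrays. Per the submitters' processing notes, the authors used RMA and Expression Console 1.4, and the deposited values are log2 levels. RMA removes an estimated background, equalises the distributions of the arrays and summarises probes per transcript cluster, so a shift common to all genes cannot be seen. Detection calls and probe intensities were not used here, and a genome build is not given in the sources used here.

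The table held 34390 transcript clusters, of which 23521 carried 1 gene symbol in the platform annotation, 1814 several and 9055 none. Each gene was read from its single-symbol cluster with the highest mean, which gave 22180 genes. Genes were tested if at least 2 of 4 arrays lay above their own median. The subsets were compared by a linear model (limma 3.58.1, R 4.3.3, two-sided moderated test), with 2 residual degrees of freedom and 3.28 from the prior, and Benjamini-Hochberg adjustment at 0.05. The procedure was also run on simulated data with 200 changed genes and values drawn independently for each gene. Its outcome is not given here and does not show how the procedure does on these arrays. Lists were described by counts and medians, and their summed level is the log2 of the sum of linear levels. Family genes were left out of the marker lists. Genes named are the 8 members, all family ligands and receptors, pathway genes at least 2-fold apart without overlap, the 3 brightest of the other pathway genes and, beside results they bear on, of the markers, and the 3 nearest profiles of Flt3 and Csf1r. The nearest profiles were ranked after genes were left out by name pattern. Some further markers were named after their values were seen. Members and lists were chosen with earlier results of these data known. Same-numbered replicates are not said to share a litter, so no block was used. Alternatives were other filters, clusters, scalings and variance priors, the replicate number as a block, a threshold of 0.1, and each array left out.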

Additional observations from a re-analysis of the deposited data

How the results depend on the processing

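The count of tested genes past an adjusted p of 0.05 (limma) was 18 with all arrays and moved with most choices. It was 33 after cyclic loess, 308 under an intensity trend, 372 with a stricter filter and 293 at a threshold of 0.1. It was 1 over every cluster, with no filter, after quantile normalization and under a robust prior. Over the runs that leave out 1 array it ran from 0 to 154, with 0 calls (limma) and 1453, 1212 and 2180 genes at an unadjusted p under 0.05 without CX3CR1low replicate 1, CX3CR1low replicate 2 and CX3CR1bright replicate 2. With the replicate block it was 0 (limma, 2637 at an unadjusted p under 0.05). Deviations from the subset mean correlated at 0.155 between CX3CR1low replicate 1 and CX3CR1bright replicate 1, over the 13133 tested genes. With 2 arrays per subset, replicate 2 mirrors replicate 1, and genes are not independent replicates. The correlation therefore does not settle a pairing. The count of members past the threshold was 1, Flt3, under the intensity trend and at a threshold of 0.1, and 0 in each run without 1 array. The stricter filter left Flt3 and Il34 untested.

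The count of members at least 2-fold apart without overlap was 1 after quantile normalization, after cyclic loess and with the stricter filter, and 1 to 3 with 1 array left out. Over all genes that count, 765, was 429 with the stricter filter and 844 to 1250 with 1 array left out. The within-array shift of Flt3 against Csf1r ran from 2.26 to 2.69. The difference of Kit turned to 0.013 after quantile normalization and 0.048 after cyclic loess, and ran from -0.33 to 0.14 with 1 array left out. That of Csf2rb ran from -0.81 to 0.032 and that of Il34 from -0.046 to 1.28. Of 110 alternative values of single members, 103 kept their sign and their side of the threshold, 6 turned sign and 1 passed the threshold. Other filters, cluster choices and variance priors and the replicate block left the difference of each tested member as it was. Its sign could not turn there, and all 6 turns came from rescalings or left-out arrays. Levels near the array median limit Il34 and the CX3CR1low level of Flt3, and 2 arrays per subset limit every interval.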
